A study of Mus musculus with 12 samples.

Results

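The peptide hormones of the enteroendocrine cells were examined in the duodenum of CORT-treated and vehicle-treated (Veh) mice. The 10 genes were taken by name from the intestine table, which lists 55416 genes. They are Gip, Gcg, Sct, Cck, Ghrl, Nts, Pyy and Sst, which encode hormones, and Chga and Chgb, which encode granins of the hormone granules. The rule used gene names only, but it was set with earlier results of these data known. All 10 genes passed the filter on low values, a group mean of 1 TPM or more with CORT or vehicle, and were among the 13607 genes tested. TPM is the share of a transcript among all transcripts of a library, corrected for transcript length, so that levels of different genes can be compared.

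Male C57BL6/J mice, 8 weeks old at the start, received CORT (corticosterone, the main glucocorticoid of rodents) at 40 mg/kg or vehicle subcutaneously each day for 8 weeks. RNA-seq was performed on 50 mg of duodenum per sample, with 3 CORT libraries and 3 Veh libraries, numbered here as in the sample labels (CORT1 to CORT3, Veh1 to Veh3). Where 3 values of a group follow each other, they stand in that order. The labels call the 3 samples of a group biological replicates. The liver was profiled in 6 further libraries. The p-values cover the spread between these samples. The number of reads behind a TPM value is unknown, so no counting error can be given.

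Enteroendocrine cells are rare hormone-secreting cells scattered through the gut epithelium, where they sense nutrients and release peptides that act on the pancreas, the gallbladder, the gut wall, the vagus nerve and the brain. They arise from crypt stem cells through progenitors that express Neurog3, and their mature forms are named by their main product, such as K cells for Gip, S cells for Sct, I cells for Cck and L cells for Gcg and Pyy. The hormones are made as precursors, cut by prohormone convertases and stored in granules with granins. In bulk tissue, a change in the number of such cells and a change in RNA per cell cannot be told apart. Islets of the pancreas express Gcg, Sst, Pyy, Chga and Chgb as well, which matters here because transcripts of the pancreas were abundant in 2 of the Veh libraries.

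Veh2 and Veh3 stood apart from the other libraries by transcripts of the pancreas. Transcripts of 35 pancreatic acinar genes, which encode digestive enzymes and other products of the exocrine pancreas, held 4.67% of TPM in Veh2 and, in Veh3, 3.81%. The share was 0.0284% in Veh1 and 0.0284%, 0.0419% and 0.0486% in CORT1, CORT2 and CORT3. Veh1 was not free of pancreas transcripts. The acinar gene Cela2a, for example, was at 28.75 TPM in Veh1 and at 0.26, 0.07 and 0.06 TPM with CORT. Results are therefore given with and without Veh2 and Veh3, and with the acinar genes removed. Removal of the acinar genes and rescaling shifted the log2 fold change of each hormone or granin gene by at most 0.037. The rescaling multiplies all remaining genes of a library by the same factor, so the size of the shift follows from the acinar shares. The step removes no islet transcripts of the hormone or granin genes. It therefore cannot show whether pancreas tissue contributed to their levels, which was not tested. The 2 glucocorticoid-induced genes used as a check of the treatment were higher in every CORT library. Fkbp5 was at 379, 281 and 252 TPM with CORT and 14.0, 8.68 and 23.3 TPM with vehicle, and Tsc22d3 was at 169.8, 172 and 105 TPM against 31.2, 31.0 and 46.0 TPM.

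No hormone or granin gene passed the threshold for a DEG, set at a limma adjusted p of up to 0.05 together with a fold change over 1.5. Thus 0 of 10 genes were called, against 2.15% of all genes tested. The smallest adjusted p was 0.121, for Nts. At an unadjusted p under 0.05 in limma, 3 of 10 genes passed (Gip, Sct and Nts), where 19.2% of all genes tested did. Of these, 1 also had a fold change over 1.5 (Nts), against 10.3% of all genes tested.

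The fitted differences were more often above than below 0. The log2 fold change, CORT minus Veh, was above 0 for 7 of 10 genes, where this held for 48.5% of all genes tested. Its median over the 10 genes was 0.42, and over all genes tested -0.012. In 4 genes (Gip, Sct, Ghrl and Nts) all 3 CORT libraries lay above all 3 Veh libraries, a pattern seen in 12.2% of all genes tested. In 0 of 10 genes did all CORT libraries lie below all Veh libraries, against 14.3% of all genes tested. The groups overlapped for the other 6 genes. These genes are transcribed in related cells of the same 6 libraries, so their values are not independent of each other. They were also chosen with earlier results of these data known. A two-sided exact permutation test of 3 samples against 3 cannot go below p = 0.1, the value that any gene without overlap has, so it was not used here.

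**Figure D1:**
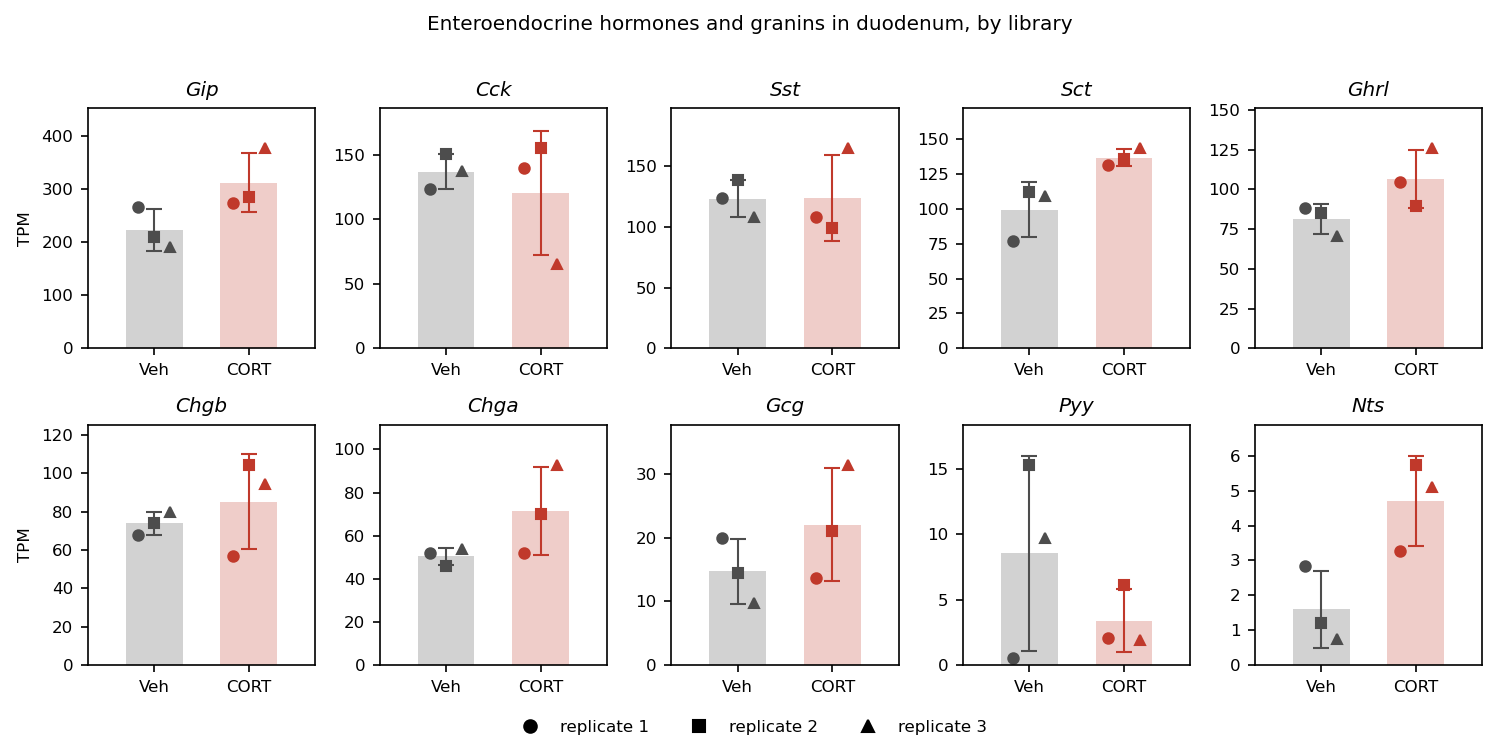
TPM of each hormone and granin gene (vertical axes, linear, starting at 0, 1 scale per gene) in the 3 Veh and the 3 CORT libraries of the duodenum. Symbols are libraries, 1 shape per replicate number, columns are group means, and error bars are the SD. Gip, Sct, Ghrl and Nts have every CORT library above every Veh library, and Pyy has its highest values in Veh2 and Veh3.

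Stretches of 250 bases upstream of the start site are shown for the 4 hormone genes whose groups did not overlap, to set side by side the sequences next to which transcription of these hormones begins. They come from RefSeq, build GRCm38.p6, and are written 5′ to 3′ on the strand of the gene. The submitters' processing notes name another build, GRCm39, so the coordinates belong to the RefSeq table only. Capitals mark a match, on either strand, to a searched motif. Of 4 start sites of Ghrl, the most upstream is shown.
Gip, chr11:96024295-96024544, plus strand: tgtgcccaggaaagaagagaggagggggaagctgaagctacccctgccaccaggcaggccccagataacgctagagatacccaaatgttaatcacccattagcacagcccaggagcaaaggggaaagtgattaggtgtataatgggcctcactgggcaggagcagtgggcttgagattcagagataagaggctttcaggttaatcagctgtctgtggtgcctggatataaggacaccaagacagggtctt
Sct, chr7:141279134-141279383, minus strand: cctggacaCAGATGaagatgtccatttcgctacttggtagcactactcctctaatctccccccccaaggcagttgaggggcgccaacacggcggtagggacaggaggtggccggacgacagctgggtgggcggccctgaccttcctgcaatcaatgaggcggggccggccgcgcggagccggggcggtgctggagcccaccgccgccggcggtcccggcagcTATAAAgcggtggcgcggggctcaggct
Ghrl, chr6:113719912-113720161, minus strand: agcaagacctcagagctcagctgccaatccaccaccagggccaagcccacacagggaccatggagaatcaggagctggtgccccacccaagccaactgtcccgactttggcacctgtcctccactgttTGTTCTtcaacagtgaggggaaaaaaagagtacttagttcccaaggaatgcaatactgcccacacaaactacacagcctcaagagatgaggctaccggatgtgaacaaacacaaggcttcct
Nts, chr10:102490419-102490668, minus strand: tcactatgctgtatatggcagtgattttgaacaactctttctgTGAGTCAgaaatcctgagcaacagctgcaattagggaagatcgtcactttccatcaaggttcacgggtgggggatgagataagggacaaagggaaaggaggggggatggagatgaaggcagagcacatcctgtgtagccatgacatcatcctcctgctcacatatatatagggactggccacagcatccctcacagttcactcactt
All 10 genes were found in the RefSeq table, with 14 upstream windows. The shares below are of windows, whereas a hormone or granin gene counts once if any of its windows holds a match. The 2 measures are therefore not alike for a gene with several starts, such as Ghrl. The searched motifs were the glucocorticoid response element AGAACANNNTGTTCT, its arm AGAACA, the cAMP response element TGACGTCA, the AP-1 site TGANTCA, the TATA box TATAAA and the E box CAGATG that NEUROD1 can bind. The full element contains the arm, and the other motifs do not contain each other. The full glucocorticoid response element was present in 0.00913% of all 32851 windows of the same length and in 0 of 10 hormone and granin genes. The arm was present in 16.1% of windows and in 1 gene, Ghrl, between 122 and 117 bases upstream of the start. The AP-1 site, present in 6.75% of windows, lay between 207 and 201 bases upstream of Nts and upstream of another start of Ghrl. The TATA box, present in 12.4% of windows, lay between 28 and 23 bases upstream of Sct and was also found upstream of Gcg. The E box, present in 14.4% of windows, was found upstream of Sct, Gcg and Cck. The cAMP response element, present in 1.55% of windows, was found upstream of Sst, between 48 and 41 bases from the start, and of Chgb, between 72 and 65 bases. No searched motif was matched in the Gip window. None of the searched motifs was common to the 4 hormone genes shown. A match is a run of letters and was not tested as a binding site.

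Gip (ENSMUSG00000014351) encodes the incretin of the K cells, which raises insulin release after a meal. It was the most abundant of the 10 transcripts in both groups. It was at 267, 209.7 and 191 TPM in Veh1, Veh2 and Veh3, and at 274, 285 and 376 TPM in CORT1, CORT2 and CORT3. The groups did not overlap, but Veh1 and CORT1 lay close together. The mean was 312 ± 55.7 TPM (SD, n = 3) with CORT and 222 ± 39.4 TPM (SD, n = 3) with vehicle. The difference between the groups, as log2 fold change, was 0.48 (standard error, SE, 0.19, 95% interval 0.045 to 0.92, limma adjusted p = 0.22). Without Veh2 and Veh3, the log2 fold change was 0.21 (SE 0.26, limma adjusted p = 0.804).

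Gcg (ENSMUSG00000000394) encodes proglucagon, from which L cells make the incretin GLP-1 and the gut growth factor GLP-2. Its transcript was at 19.9, 14.5 and 9.79 TPM with vehicle and 13.7, 21.1 and 31.5 TPM with CORT. CORT1 lay below Veh1 and Veh2, and the groups overlapped. The mean was 22.1 ± 8.92 TPM (SD, n = 3) with CORT and 14.7 ± 5.09 TPM (SD, n = 3) with vehicle (log2 fold change 0.53, SE 0.34, 95% interval -0.28 to 1.34, limma adjusted p = 0.439). When each of the 6 libraries was left out in turn, it ran from 0.25 without CORT3 to 0.82 without CORT1. Without Veh2 and Veh3 it was 0.066, since Veh1 held the highest Veh value.

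Sct (ENSMUSG00000038580) encodes secretin, the S cell hormone that stimulates bicarbonate secretion by the pancreas. It was at 76.6, 112 and 109 TPM with vehicle and at 131, 135 and 143 TPM with CORT. The CORT libraries lay close together, above all Veh libraries, and Veh1 was the lowest of the 6. The mean was 137 ± 6.09 TPM (SD, n = 3) with CORT and 99.2 ± 19.7 TPM (SD, n = 3) with vehicle. On the log2 scale, CORT minus Veh was 0.48 (SE 0.17, 95% interval 0.073 to 0.88, limma adjusted p = 0.196). Here the omission of Veh2 and Veh3 moved the estimate away from 0, to 0.82 (SE 0.17, limma adjusted p = 0.272), and the omission of Veh1 moved it to 0.30.

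Cck (ENSMUSG00000032532) encodes cholecystokinin, the I cell hormone that contracts the gallbladder, stimulates pancreatic enzyme secretion and reduces food intake. It was at 123, 151 and 138 TPM with vehicle and at 140.3, 155 and 65.6 TPM with CORT. CORT1 and CORT2 lay within or just above the Veh range, and CORT3 was far lower than the other 5 libraries. Limma gave a log2 fold change of -0.28 (SE 0.32, 95% interval -1.03 to 0.47, limma adjusted p = 0.663), and it was 0.11 without CORT3. Without Veh2 and Veh3 it was -0.13. In CORT3, 5.97% of the summed TPM of the 10 genes came from Cck, against 15.0% to 17.9% in the other libraries. CORT3 was at the same time the library with the highest level of Gip, Gcg, Sct, Ghrl, Sst and Chga.

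Ghrl (ENSMUSG00000064177) encodes ghrelin, a hormone that stimulates appetite and is made mostly in the stomach and in smaller amounts in the duodenum. It was at 88.5, 85.1 and 71.0 TPM with vehicle and at 105, 89.5 and 126 TPM with CORT. The groups did not overlap, although CORT2 and Veh1 differed by less than the SD of either group. The mean was 107 ± 18.2 TPM (SD, n = 3) with CORT and 81.5 ± 9.32 TPM (SD, n = 3) with vehicle (log2 fold change 0.38, SE 0.17, 95% interval -0.014 to 0.77, limma adjusted p = 0.276). Without Veh2 and Veh3, the log2 fold change of Ghrl was 0.25. The summed level of 10 stomach genes was low in all libraries, at 7.85 to 24.3 TPM with vehicle and 8.44 to 12.1 TPM with CORT. Gkn3, Pgc and Cblif were the highest of these, and Gkn2, Atp4b and Muc5ac were listed at 0 in all 6 libraries.

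Nts (ENSMUSG00000019890) encodes neurotensin, a peptide that slows gut motility and aids fat absorption. It is made mostly further down the small intestine. Its transcript was at 2.85, 1.21 and 0.75 TPM with vehicle and at 3.26, 5.74 and 5.11 TPM with CORT. The groups did not overlap, and CORT1 lay just above Veh1. The mean was 4.70 ± 1.29 TPM (SD, n = 3) with CORT and 1.60 ± 1.10 TPM (SD, n = 3) with vehicle. The log2 fold change, on the log2(TPM + 1) scale that understates changes of low genes, was 1.19 (SE 0.33, 95% interval 0.42 to 1.96, limma adjusted p = 0.121). This was the largest fold change of the 10 genes, from the transcript with the lowest level in the vehicle-treated group. Leaving out single libraries gave 0.94 to 1.51, with limma adjusted p-values of 0.0544 to 0.292. Without Veh2 and Veh3 the log2 fold change was 0.54 (limma adjusted p = 0.648).

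Pyy (ENSMUSG00000017311) encodes peptide YY, an L cell hormone that slows gastric emptying and reduces appetite, and which islets also express. It was at 0.53, 15.3 and 9.75 TPM in Veh1, Veh2 and Veh3, and at 2.07, 6.15 and 1.93 TPM with CORT. Veh2 and Veh3 were the highest of the 6 libraries and Veh1 the lowest, so that the Veh group enclosed the CORT group. In limma, the log2 fold change was -0.69 with a SE of 0.86 (95% interval -2.73 to 1.36, limma adjusted p = 0.694). It turned to 1.39 (SE 0.60, limma adjusted p = 0.525) without Veh2 and Veh3. No direction can be given for Pyy from these libraries.

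Sst (ENSMUSG00000004366) encodes somatostatin, the D cell peptide that inhibits the release of most other gut hormones. It was at 123, 138 and 108 TPM with vehicle and at 108, 98.9 and 164 TPM with CORT. The CORT libraries lay on both sides of the Veh range. The means were 124 ± 35.4 TPM (SD, n = 3) with CORT and 123 ± 15.5 TPM (SD, n = 3) with vehicle (log2 fold change -0.023, SE 0.21, limma adjusted p = 0.966). The 95% interval of -0.53 to 0.48 holds differences of either sign. Without Veh2 and Veh3, the log2 fold change of Sst was -0.033.

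The granins are packed into the granules with the hormones and are used as markers of endocrine cells as a class. Chga (ENSMUSG00000021194, chromogranin A) was at 51.8, 46.1 and 53.7 TPM with vehicle and at 51.7, 69.8 and 92.8 TPM with CORT. CORT1 lay inside the Veh range and the other 2 CORT libraries lay above it. The difference between the groups, as log2 fold change, was 0.45 (SE 0.21, 95% interval -0.052 to 0.96, limma adjusted p = 0.307). It ran from 0.25 without CORT3 to 0.66 without CORT1, and was 0.42 without Veh2 and Veh3. Chgb (ENSMUSG00000027350, chromogranin B) was at 68.0, 73.9 and 79.7 TPM with vehicle and at 57.0, 104 and 94.3 TPM with CORT. CORT1 was the lowest and CORT2 the highest of the 6 libraries. On the log2 scale, CORT minus Veh was 0.16 (SE 0.23, 95% interval -0.39 to 0.71, limma adjusted p = 0.734), and 0.27 without Veh2 and Veh3. For both granins, the spread among CORT libraries was wider than among Veh libraries, with an SD of 20.6 TPM against 3.94 TPM for Chga and 25.0 TPM against 5.84 TPM for Chgb. This was not particular to the granins, as the SD was also larger with CORT for Gip, Gcg, Cck, Ghrl, Nts and Sst. It was smaller with CORT for Sct (6.09 against 19.7 TPM) and Pyy (2.40 against 7.46 TPM).

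**Figure D2:**
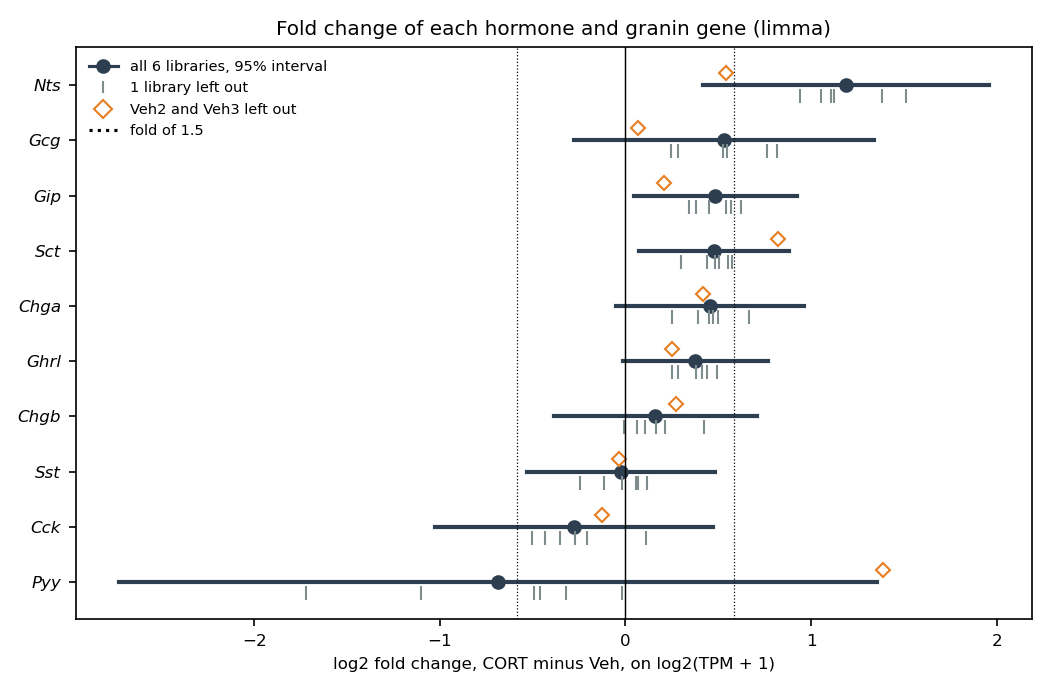
Log2 fold change of each hormone and granin gene, CORT minus Veh, on the log2(TPM + 1) scale (horizontal axis), from limma. Filled points with lines are estimates from all 6 libraries with their 95% intervals, short ticks are fits that each leave out 1 library, open diamonds are fits without Veh2 and Veh3, and dotted lines mark a fold of 1.5. Estimates are above 0 for 7 genes, and the diamond of Pyy lies at 1.39, on the other side of 0 from its estimate of -0.69.

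Added together, the 10 transcripts reached 822, 847 and 769.6 TPM with vehicle and 886, 971 and 1100 TPM with CORT, and the groups did not overlap. They made up 0.0772% to 0.0849% of TPM with vehicle and 0.0892% to 0.111% with CORT. Gip alone held 24.8% to 34.2% of the sum. In the vehicle-treated group, the order of the mean levels was Gip, Cck, Sst, Sct, Ghrl, Chgb, Chga, Gcg, Pyy and Nts. Only Gip against Cck, Chgb against Chga, and Chga against Gcg were neighbours without overlap in that order. In the CORT-treated group, the order was Gip, Sct, Sst, Cck, Ghrl, Chgb, Chga, Gcg, Nts and Pyy, where Gip against Sct, Chga against Gcg, and Gcg against Nts did not overlap. Sct stood behind Sst and Cck with vehicle, where its range lay below that of Cck and overlapped that of Sst, and ahead of both with CORT, where the ranges of all 3 overlapped. The highest value over the 6 libraries was in CORT3 for 6 genes, in CORT2 for 3 genes and in Veh2 for 1 gene, and CORT1 held the highest value of none.

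Summed levels of marker genes of other cell types were set beside these values. The summed level of 11 enterocyte genes was 45084, 31921 and 32077 TPM in Veh1, Veh2 and Veh3 and 67629, 58846 and 66866 TPM with CORT. Of these 11 genes, 6 had every CORT library above every Veh library, against 12.2% of all genes tested. Apob, the structural protein of chylomicrons, was the 1 gene called higher (log2 fold change 1.64, SE 0.26, limma adjusted p = 0.0325). Over all 13607 genes tested, 167 were called higher. Most of the sum came from Apoa4, Apoa1, Fabp1 and Fabp2, whereas the log2 fold changes of Vil1 (-0.16), Sis (-0.016) and Alpi (-0.49), named after their values were seen, were below 0 and not called. The summed level of 5 smooth muscle genes was 493, 747 and 369.8 TPM with vehicle and 306, 242 and 383 TPM with CORT. The summed level of 10 enteric neuron genes, which matter because neurons also express Sst and Chgb, was 26.8 to 40.2 TPM over the 6 libraries, and the groups overlapped. The summed level of 7 tuft cell genes was 102 TPM in Veh2, the library with the highest Pyy, and 15.4 to 27.2 TPM in the other 5 libraries. The part of these cell types in the hormone levels was not tested.

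The position along the gut was read from regional genes. Gata4, a transcription factor of the proximal intestine, was at 113, 101 and 108 TPM with vehicle and at 94.3, 78.6 and 106 TPM with CORT. The 5 distal genes, among them Fabp6 and Slc10a2 of the ileal bile acid pathway, summed to 0.10 to 0.92 TPM, and Fgf15 was listed at 0 in all 6 libraries. All 6 libraries thus held Gata4 and lacked the ileal genes at more than trace levels. Slc40a1, the iron exporter, was at 11.8, 263 and 302 TPM in Veh1, Veh2 and Veh3 and at 56.0, 23.6 and 3.22 TPM with CORT. Pdx1, a transcription factor of the duodenum and pancreas, was at 13.4, 41.9 and 40.6 TPM with vehicle and at 32.4, 23.9 and 8.13 TPM with CORT. Veh2 and Veh3 were the highest libraries for both genes, as they were for the acinar genes and for Pyy. The part of the sampled position in the hormone levels was not tested.

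The next question was which hormone and granin genes set Veh2 and Veh3 apart. Both libraries lay above the other 4 for 1 of 10 genes, Pyy, where this held for 8.14% of all genes tested. Both lay below the other 4 for 3 of 10 genes, Gip, Ghrl and Nts, where this held for 13.0% of all genes tested. Sst, Chga, Chgb, Cck, Sct and Gcg did not stand out in these libraries, and Gcg, the main product of islet alpha cells, was lower in both than in Veh1. In Gip, Ghrl and Nts, Veh1 was the highest Veh library, and the difference between the groups was smaller against Veh1 alone. All CORT libraries lay above Veh1 for 5 of 10 genes (Gip, Sct, Ghrl, Nts and Pyy), against 23.2% of all genes tested.

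Insulin transcripts, the mark of islet beta cells, were found in the same 2 libraries. Ins2 was at 4.97 TPM in Veh2 and 25.4 TPM in Veh3, and was listed at 0 in Veh1 and in all CORT libraries. Ins1 was at 0.39 TPM in Veh2 and 2.54 TPM in Veh3, and was listed at 0 in the other 4. Ppy, the pancreatic polypeptide of the same family as Pyy, was at 0.55, 1.18 and 1.68 TPM with vehicle and listed at 0 in all CORT libraries. It was not called. Ucn3 was at 0.59, 1.54 and 1.40 TPM with vehicle and at 0.40, 0.52 and 0.74 TPM with CORT. Iapp (1.57 to 2.80 TPM over the 6 libraries) did not follow Ins2. Mafa was at 0.11 TPM or less, and the beta cell genes G6pc2, Slc30a8 and Nkx6-1 were listed at 0 in all 6 libraries. Ins2 was higher in Veh3 than in Veh2, whereas Pyy was higher in Veh2 than in Veh3.

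The exocrine pancreas was far more abundant than the islets. Of the 35 acinar genes, 32 were tested, and all 32 had a log2 fold change below 0. Limma called 0 of them, against 2.15% of all genes tested. At an unadjusted limma p under 0.05 with a fold change over 1.5, 28 of the 32 passed, all of them lower with CORT. Over all 13607 genes tested, 730 passed in that direction. All CORT libraries lay below all Veh libraries for 21 of the 32, against 14.3% of all genes tested. The acinar list was chosen with earlier results of these data known. Many of its genes passed the filter only through the Veh group, such as Amy2b (mean 2.96 TPM with vehicle and 0 with CORT). The direction of these counts was thus set in advance, so they describe Veh2 and Veh3 and test nothing. Ctrb1 (chymotrypsinogen) was at 14.5, 7733 and 6026 TPM with vehicle and at 0.35, 0.28 and 0.76 TPM with CORT. Cela2a, an elastase, was at 28.7, 4137 and 4168 TPM with vehicle and at 0.26, 0.07 and 0.06 TPM with CORT. Try4, a trypsin, was at 1.87, 3651 and 2217 TPM with vehicle and was listed at 0 in the CORT libraries, although reads of the near-identical trypsin genes can be split between copies. Veh1 thus also lay above the CORT libraries for these genes, at levels far below those of Veh2 and Veh3.

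**Figure D3:**
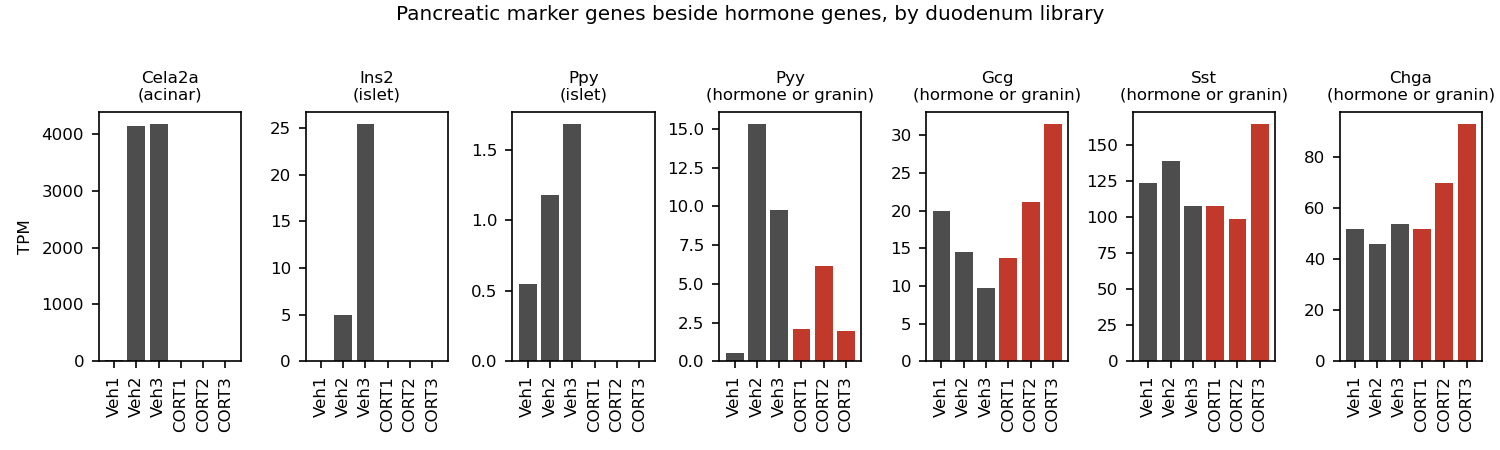
TPM of pancreatic markers and of hormone genes that islets share (vertical axes, linear, starting at 0, 1 scale per gene) in each of the 6 duodenum libraries (horizontal axis), with Veh libraries in grey and CORT libraries in red. Ins2 was above 0 only in Veh2 and Veh3 among the 6 libraries, and Pyy was highest there, while Gcg, Sst and Chga were not.

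The genes of enteroendocrine differentiation and of the granules were examined next. In the list of 18 transcription factors of the lineage, 8 were tested and 0 were called, against 2.15% of all genes tested. Of their log2 fold changes, 5 were above 0 and 3 below (median 0.15). Neurog3, which sets the endocrine fate, was at 1.99, 1.16 and 2.69 TPM with vehicle and at 3.66, 2.15 and 2.60 TPM with CORT, and the groups overlapped. Sox4 and Foxa1 were the other 2 of the 3 highest. Sox4 was at 3.12 to 4.06 TPM with vehicle and 2.53 to 4.20 TPM with CORT, and Foxa1 at 1.96 to 2.65 TPM and 2.24 to 3.34 TPM. The other 10 factors had means under 1 TPM in both groups and were not tested.

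Of 19 genes for prohormone processing and granules, 16 were tested, 1 was called higher and 0 were called lower. Over all genes tested, 2.15% were called in either direction. The median log2 fold change of the list was -0.015. The gene called was Pcsk1 (ENSMUSG00000021587), the prohormone convertase that cuts the precursors of Gip, Gcg, Cck and other hormones. Its upstream stretch, again from RefSeq GRCm38.p6, is shown because it holds a cAMP response element (capitals), between 78 and 71 bases from the start.
Pcsk1, chr13:75089607-75089856, plus strand: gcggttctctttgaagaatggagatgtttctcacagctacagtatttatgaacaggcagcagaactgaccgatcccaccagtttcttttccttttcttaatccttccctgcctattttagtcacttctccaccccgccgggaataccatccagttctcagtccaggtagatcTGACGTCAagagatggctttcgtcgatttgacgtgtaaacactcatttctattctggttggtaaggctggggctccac
Pcsk1 was at 2.18, 2.33 and 2.29 TPM with vehicle and at 4.78, 5.72 and 5.39 TPM with CORT. The groups were far apart, with a mean of 5.30 ± 0.477 TPM (SD, n = 3) against 2.27 ± 0.0777 TPM (SD, n = 3). Limma gave a log2 fold change of 0.94 (SE 0.14, 95% interval 0.62 to 1.26, limma adjusted p = 0.0272). Its value did not set Veh2 and Veh3 apart from Veh1, and the log2 fold change was 0.98 without them, where it was not called (limma adjusted p = 0.310). Nor was Pcsk1 called with the replicate number as a block (limma adjusted p = 0.0927) or with no filter on low values (limma adjusted p = 0.0849). The call was lost whenever 1 of the 6 libraries was left out, with log2 fold changes of 0.90 to 1.00 and limma adjusted p-values of 0.0548 to 0.113.

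No other gene of that list was called. Cpe, which trims the cut peptides, was at 22.2, 42.9 and 16.7 TPM with vehicle and at 18.5, 24.7 and 26.5 TPM with CORT. Scg2, another granin, was at 8.42 to 11.1 TPM with vehicle and 7.77 to 14.4 TPM with CORT. Pam, which amidates peptides, was at 6.85 to 13.2 TPM with vehicle and 6.26 to 10.8 TPM with CORT. None of these 3 passed the test, and their groups overlapped.

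**Figure D4:**
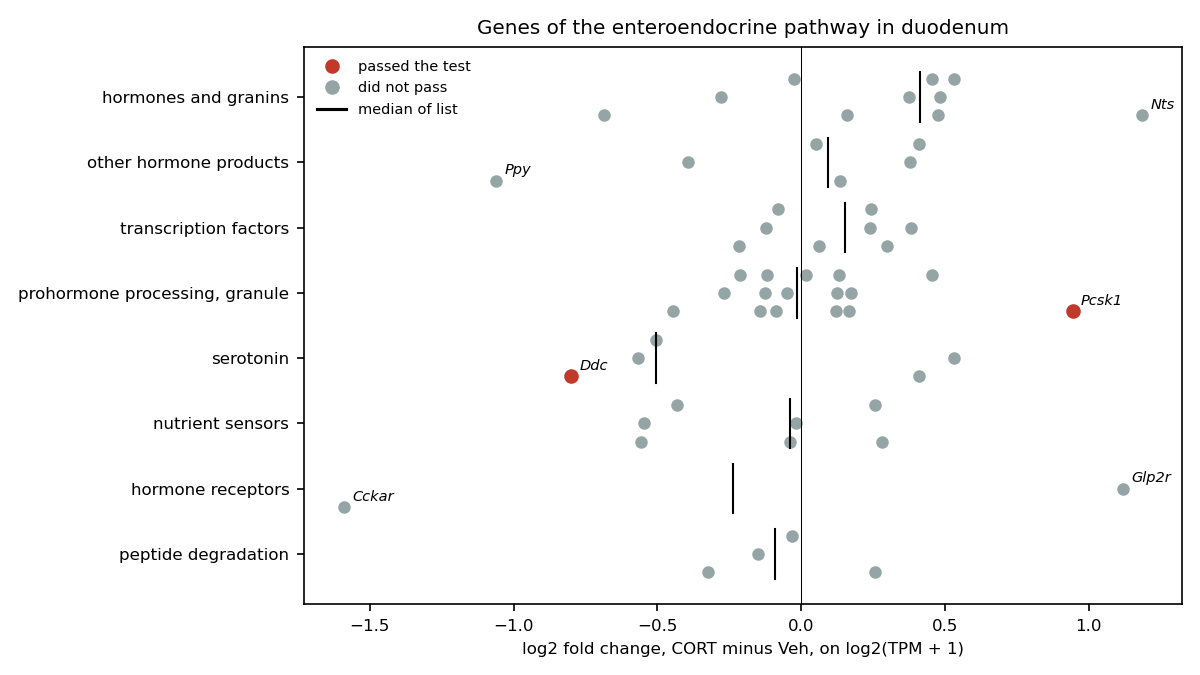
Log2 fold change, CORT minus Veh, on the log2(TPM + 1) scale for every tested gene of each enteroendocrine list, from limma. Points are genes, red points were called, and short vertical lines are list medians. Ppy was listed at 0 in all CORT libraries, so its position depends on the pseudocount. Pcsk1 was called higher at 0.94 and Ddc was called lower at -0.80, and the other points lie on both sides of 0.

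Serotonin is made by enterochromaffin cells, the most common enteroendocrine cells. Of 6 genes of serotonin synthesis, transport and breakdown, 5 were tested, 0 were called higher and 1 was called lower. Over all genes tested, 2.15% were called in either direction. The serotonin gene called was Ddc (ENSMUSG00000020182), the decarboxylase of the last step of serotonin synthesis, which enterocytes also express. Ddc was at 178, 160.4 and 172 TPM with vehicle and at 90.2, 93.4 and 109 TPM with CORT. The groups were far apart, with a mean of 97.6 ± 10.1 TPM (SD, n = 3) against 170.2 ± 9.05 TPM (SD, n = 3) (log2 fold change -0.80, SE 0.13, 95% interval -1.10 to -0.50, limma adjusted p = 0.031). The call was lost whenever 1 of the 6 libraries was left out, with log2 fold changes of -0.88 to -0.75 and limma adjusted p-values of 0.0633 to 0.132. Tph1, the rate-limiting enzyme of serotonin synthesis in the gut, was at 6.79, 9.36 and 8.68 TPM with vehicle and at 8.80, 13.5 and 11.9 TPM with CORT. The groups overlapped, and the log2 fold change of Tph1 was 0.41 (SE 0.19, limma adjusted p = 0.300).

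The genes for uptake and breakdown of serotonin were lower on average without passing the test. Maoa, which breaks serotonin down, was at 275, 218 and 258 TPM with vehicle and at 145, 164 and 201 TPM with CORT. Its groups did not overlap (log2 fold change -0.57, SE 0.17, limma adjusted p = 0.140). Slc6a4, the serotonin uptake transporter, was at 39.8, 29.5 and 27.3 TPM with vehicle and at 19.9, 18.3 and 29.6 TPM with CORT, with overlap. Slc18a1, which loads serotonin into granules and was picked after its values were seen, was at 3.01, 3.01 and 3.85 TPM with vehicle and at 4.81, 4.40 and 6.52 TPM with CORT. Its log2 fold change was 0.53 (SE 0.18, limma adjusted p = 0.176).

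Among 8 other enteroendocrine products, 6 were tested and 0 were called, against 2.15% of all genes tested. The median log2 fold change of the list was 0.094. Tac1, the precursor of substance P in enterochromaffin cells and neurons, was at 6.27, 7.77 and 6.13 TPM with vehicle and at 3.32, 5.97 and 5.67 TPM with CORT, without overlap (log2 fold change -0.39, SE 0.21, limma adjusted p = 0.369). Nucb2 was at 4.39 to 9.13 TPM with vehicle and 4.98 to 10.2 TPM with CORT. The colonic hormone gene Insl5 and the stomach hormone gene Gast were at 0.54 TPM or less in all 6 libraries.

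Of 16 nutrient sensors and transporters that trigger hormone release, 7 were tested and 0 were called, against 2.15% of all genes tested. The median log2 fold change of the list was -0.040. Slc5a1, the glucose transporter through which sugar triggers release of Gip and GLP-1, was at 1292, 1016 and 1167 TPM with vehicle and at 1528, 1127 and 1596 TPM with CORT. Slc15a1, the peptide transporter, was at 191, 106 and 112 TPM with vehicle and at 85.4, 80.2 and 133 TPM with CORT. Both overlapped between the groups, and both are expressed mainly by enterocytes. Lpar5 was at 28.3 to 34.8 TPM with vehicle and 29.8 to 33.1 TPM with CORT.

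The receptors for the hormones were little expressed in the duodenum. Of 19 receptor genes, 2 were tested and 0 were called, against 2.15% of all genes tested. Glp2r, the receptor for GLP-2, was at 1.09, 2.43 and 2.88 TPM with vehicle and at 4.64, 6.50 and 5.73 TPM with CORT. Its groups did not overlap, and the log2 fold change was 1.12 (SE 0.26, limma adjusted p = 0.0824). Cckar, a receptor for Cck that is also abundant in mouse pancreas, was at 0.50, 5.42 and 2.74 TPM in Veh1, Veh2 and Veh3 and at 0.02, 0.06 and 0.22 TPM with CORT. Its highest values lay in the 2 libraries with abundant acinar transcripts (log2 fold change -1.59, SE 0.50, limma adjusted p = 0.160). Cckar passed the filter only through the Veh group, with a mean of 2.89 TPM against 0.10 TPM with CORT. Without Veh2 and Veh3 together it fell under the filter and was not tested. It was called without Veh1, which leaves the 2 Veh libraries with abundant acinar transcripts (-2.16, limma adjusted p = 0.0305). It was not called without Veh2 (-1.11, limma adjusted p = 0.319) or Veh3 (-1.50, limma adjusted p = 0.358). With a pseudocount of 0.1 its log2 fold change was -3.53 and it was not called. The source of the Cckar transcripts was not tested. Gcgr was at 0.53 to 0.82 TPM with vehicle and 0.35 to 1.13 TPM with CORT.

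Of 4 surface peptidases that break the hormones down, all 4 were tested and 0 were called, against 2.15% of all genes tested. The median log2 fold change of the list was -0.090. Anpep was at 5238, 2025 and 1914 TPM with vehicle and at 2499, 1709 and 2429 TPM with CORT. Ace was at 309 to 794 TPM with vehicle and 292 to 764 TPM with CORT, and Mme at 165 to 244 TPM and 130.4 to 203 TPM. Veh1 held the highest value of all 3 genes. Dpp4, which inactivates GIP and GLP-1, was picked after its values were seen. It was at 125, 77.5 and 59.7 TPM with vehicle and at 82.1, 109 and 112 TPM with CORT, with overlap.

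The liver, which has no enteroendocrine cells, gave the background of the measurement. Of 60 values of the 10 genes in the 6 liver libraries, 9 were above 0, and the highest was 0.21 TPM, for Ghrl in the liver library Veh1. Cck, Gip, Sct, Gcg and Pyy were listed at 0 in all liver libraries. All 60 duodenum values lay above that level, and the lowest of them were those of Pyy in Veh1 (0.53 TPM) and of Nts in Veh3 (0.75 TPM). The tables of the 2 tissues were normalised separately, and no test was made between them.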

How the data were processed

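RNA-seq of duodenum and liver was analysed in 12 libraries, 3 per group and tissue, grouped by the sample labels. Per the study's methods, the authors cleaned reads by SeqPrep and Sickle, used HISAT2 for alignment and StringTie for assembly, and obtained abundances by RSEM. Each library has its own column of deposited TPM, so depth is unknown. The processing notes name GRCm39, and tool versions are not given in the sources used here. The authors called DEGs with DESeq2, which needs read counts. From the deposited TPM, log2(TPM + 1) of the duodenum was fitted by limma 3.58.1 in R 4.3.3 (lmFit, eBayes with a trend, treatment as the only term). The 13607 genes tested had a group mean of 1 TPM or more with CORT or vehicle. Benjamini-Hochberg adjustment was made over all of them, and every adjusted p is limma's. A gene was called a DEG when its adjusted p did not exceed 0.05 and its fold change exceeded 1.5. The fit was tested on simulated data for this comparison, where 175 of 200 genes given a log2 change of 2 were called, with 9 unchanged genes, among 13607. That change is larger than any fitted for the 10 hormone and granin genes, of which 2 had a fold change over 1.5. The simulation therefore does not show how often changes of their size would be called. Alternatives were pseudocount 0.1, no filter, median-ratio scaling, removal of 35 acinar genes, a replicate block, no trend, unadjusted p-values, and the omission of each library or of Veh2 and Veh3 together. With 1 Veh library left, it was assumed to vary like the CORT libraries. The hormone genes and all lists were chosen with earlier results of these data known. Named genes were the 10 genes, of each pathway or cell type list those called and the 3 highest, all islet genes above 0, and Fkbp5 and Tsc22d3. Some genes so selected are left out. Goblet, tuft and glucocorticoid-induced genes were read as further lists. Of the 6 genes tested in each, 0, 0 and 3 were called, against 2.15% of all genes tested. Upstream sequences came from RefSeq (GRCm38.p6).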

Additional observations from a re-analysis of the deposited data

How the results depend on the processing

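In each of the 13 other fits, 0 of the 10 hormone and granin genes were called, and 1 passed with unadjusted p-values and a fold change over 1.5. The number of DEGs among all genes was 292 and moved to 1395 with unadjusted p-values, 52 with no filter on low values, 62 with the replicate block, 10 without Veh2 and Veh3, and 66 (without Veh3) to 237 (without Veh1) without single libraries. Samples with the same number correlated by 0.054, 0.073 and -0.0039 in their deviations from the group means, so the numbers were not taken as pairs. Not every sample correlated best with its own number. With the block, Pcsk1 (limma adjusted p = 0.0927) and Ddc (limma adjusted p = 0.0939) were not called. They were also not called with no filter (0.0849 and 0.0629) or without Veh2 and Veh3 (0.310 and 0.308). Over the fits without single libraries, the log2 fold change ran from -0.51 to 0.11 for Cck (above 0 without CORT3), from -0.24 to 0.12 for Sst (above 0 without Veh2, CORT1 or CORT2, at 0.065, 0.057 and 0.12), and from -0.0076 to 0.42 for Chgb (below 0 without CORT2). That of Pyy turned to 1.39 without Veh2 and Veh3. The cause was not tested. The summed TPM of the 10 genes moved by less than 1 SD under both scalings. With the acinar genes removed, the size of this move follows from the acinar shares. TPM keeps no depth, so the precision of low genes such as Nts and Pyy rests on the spread of 3 libraries.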
